A study of Mus musculus with 16 samples.

Results

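The tubulin genes of the mouse ventricle were followed as a family of 10, namely the alpha-tubulin genes Tuba1a, Tuba1b, Tuba1c, Tuba4a and Tuba8 and the beta-tubulin genes Tubb2a, Tubb2b, Tubb4b, Tubb5 and Tubb6. They were picked out by symbol from 24421 entries of a count table, and all 10 were among the 13522 genes that passed a filter on low counts. Alpha- and beta-tubulin pair into the dimers from which microtubules are built, and microtubules of the heart muscle cell carry cargo and resist its contraction. Of these alpha-tubulin genes, Tuba1a, Tuba1b and Tuba1c encode a product made with a tyrosine at its end. Vasohibins (with their partner SVBP) and MATCAP1 remove this tyrosine and the ligase TTL puts it back. Detyrosinated microtubules are known to become dense and stiff in hypertrophied hearts. In mammalian cells, excess free tubulin also starts the decay of tubulin mRNA through TTC5, a protein that reads the first residues of the growing tubulin chain on the ribosome.

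Polyadenylated RNA from ventricles of C57BL/6N mice labelled male was sequenced in 16 libraries, 4 in each of 4 groups. WT TAC mice were wildtype and had transverse aortic constriction (TAC), a narrowing of the aorta that loads the left ventricle with pressure, and WT sham mice were wildtype with control surgery. JP2CR TAC and JP2CR sham mice had the same operations and were homozygous for JP2CR, a germline knock-in that deletes codons 563 to 568 of Jph2 so that its product junctophilin-2, which ties the transverse tubules to the sarcoplasmic reticulum, resists the protease calpain. Surgery was done at 9 to 10 weeks of age and ventricles were taken 5 weeks later. A count of all reads on Jph2 cannot show so short a deletion. Whole ventricle holds every cell type of the chamber, and fewer cells of a type and less RNA per cell cannot be told apart in it.

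Total counts per library ran from 9966782 to 16609732, and levels are given as CPM, read counts scaled to a common library total with TMM factors, at which 3 counts correspond to between 0.185 and 0.314 CPM. Libraries 3 and 4 of JP2CR sham held 189 and 196 CPM of Xist, a transcript of female cells, and 0 CPM of Y-linked genes, and library 4 of JP2CR TAC held 141 CPM of Xist beside 118 CPM of Y-linked genes, although all were labelled male. The other 13 libraries held at most 0.266 CPM of Xist. Library 3 of WT TAC and library 3 of JP2CR TAC lay between libraries 1 and 2 of their own groups and are called intermediate. Their chi-square per degree of freedom over genes to libraries 1 and 2 was 4.37 and 5.05 in WT (15.4 between libraries 1 and 2). It was 5.71 and 4.25 in JP2CR (15.01 between libraries 1 and 2). Such a place was not particular to them. WT TAC 4 was at 7.59 and 6.45, and WT sham 3 at 2.37 and 3.96 (6.85 between WT sham 1 and 2). JP2CR sham 3 had the highest level within its group for 8 of the 10 tubulin genes and the lowest for 0. Results for JP2CR sham are therefore also given without JP2CR sham 3 and without the 3 libraries with Xist counts. JP2CR TAC 1 was lowest in its group for 8 of the 10 genes and JP2CR TAC 2 highest for 7. Counts were found for 8 of 8 cardiomyocyte markers, with a summed level between 63787.9 and 103311 CPM over the 16 libraries. These markers show heart muscle and do not test the ventricle label against atrium. Summed atrial markers differed between groups, at 91.5 to 299 CPM in WT TAC and 1434 to 2322 CPM in WT sham libraries. In JP2CR they were at 381 to 649 CPM in TAC and 199 to 2225 CPM in sham libraries.

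The coding sequence of each gene shows where the family members differ, and 2 stretches of it are printed because they carry the signals named above. The last 60 bases of the coding sequence encode the tail that is exposed on the microtubule, and they are given for 7 of the genes 5′ to 3′ on the coding strand from the GENCODE annotation of GRCm38 with the last codon before the stop in capitals. A tyrosine codon ends the alpha-tubulin genes Tuba1a, Tuba1b and Tuba1c, a glutamate codon ends Tuba4a, so that its product needs no enzyme to lack the tyrosine, and a phenylalanine codon ends Tuba8.
Tuba1c: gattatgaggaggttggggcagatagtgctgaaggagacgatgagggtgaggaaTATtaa
Tuba4a: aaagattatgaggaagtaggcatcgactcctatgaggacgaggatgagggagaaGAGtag
Tuba8: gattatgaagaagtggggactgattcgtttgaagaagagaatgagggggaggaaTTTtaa
The beta-tubulin genes Tubb2a, Tubb2b, Tubb4b and Tubb5 end on an alanine codon, and Tubb6 ends on a glutamate codon.
Tubb2a: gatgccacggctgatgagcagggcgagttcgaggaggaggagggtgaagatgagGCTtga
Tubb2b: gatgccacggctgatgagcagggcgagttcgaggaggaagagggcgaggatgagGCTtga
Tubb4b: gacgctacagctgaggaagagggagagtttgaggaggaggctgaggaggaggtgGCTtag
Tubb5: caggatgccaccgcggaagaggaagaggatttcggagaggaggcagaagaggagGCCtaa

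The first 12 bases, which encode the residues that TTC5 reads, are shown in capitals because they are shared within each family at the level of the amino acids and differ in their bases. Tuba1a, Tuba1b and Tuba1c have the same 12 bases.
Tuba1a: ATGCGTGAGTGC
Tuba4a: ATGCGCGAGTGC
Tuba8: ATGAGGGAATGC
Each of the 4 beta-tubulin genes shown has its own.
Tubb2a: ATGCGCGAGATC
Tubb2b: ATGCGAGAGATC
Tubb4b: ATGAGGGAGATC
Tubb5: ATGAGGGAAATC

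Tuba1b (chr15:98931425-98934565, minus strand), Tuba1a (chr15:98949837-98953703, minus) and Tuba1c (chr15:99029891-99038110, plus) stand in a cluster, with 15271 bases between Tuba1a and Tuba1b and 76187 bases between Tuba1a and Tuba1c in GRCm38. Tubb2a (chr13:34074274-34078007, minus) and Tubb2b (chr13:34126748-34130466, minus) are also neighbours, 48740 bases apart. Tuba4a (chr1:75214228-75219865, minus), Tuba8 (chr6:121210696-121226854, plus), Tubb4b (chr2:25222160-25224702, minus) and Tubb5 (chr17:35833921-35838306, minus) stand apart from other members. The neighbours are close copies. Coding sequences were 98.3% identical between Tuba1a and Tuba1b, 97.1% between Tuba1a and Tuba1c, 97.9% between Tuba1b and Tuba1c and 96.5% between Tubb2a and Tubb2b, against 79.2 to 85.3% for the other alpha-tubulin pairs.

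This likeness bears on the counts, because a read that matches several genes may be split or dropped by a counter, and the settings of the one used are not known here. Of all stretches of 50 bases in the longest transcript, 72.9% in Tuba1a, 73.8% in Tuba1b and 61.0% in Tuba1c also occurred in another gene's transcript, and so did 49.6% in Tubb2a, 39.3% in Tubb2b and 50.9% in Tubb4b, where most were shared with the pseudogene Tubb4b-ps1. The share was 1.11% in Tuba4a, 0.181% in Tuba8, 0.115% in Tubb5 and 0 in Tubb6. The split among Tuba1a, Tuba1b and Tuba1c, between Tubb2a and Tubb2b, and between Tubb4b and its pseudogene is therefore uncertain, while Tuba4a, Tuba8, Tubb5 and Tubb6 could be counted nearly free of it.

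The promoters of the alpha-tubulin genes with the clearest changes in opposite directions, Tuba4a and Tuba1c, were picked with their values known and are printed from the RefSeq table of GRCm38.p6, from 250 bases before the start to 50 after it on the gene's strand, with matches to the motifs searched in capitals. The motifs, on both strands, were the Sp1 box with the letters GGGCGG, the CCAAT box by its own name, the TATA box with the letters TATAAA, the M-CAT element with the letters CATTCC, the AP-1 site with the letters TGANTCA, the E-box with the letters CACGTG, and the CArG box of serum response factor, inside which a TATA box can lie. Tuba4a (chr1:75219245-75219544, minus) held 2 Sp1 boxes and no other match, and Tuba1c (chr15:99029641-99029940, plus) held 1 CCAAT box.
Tuba4a: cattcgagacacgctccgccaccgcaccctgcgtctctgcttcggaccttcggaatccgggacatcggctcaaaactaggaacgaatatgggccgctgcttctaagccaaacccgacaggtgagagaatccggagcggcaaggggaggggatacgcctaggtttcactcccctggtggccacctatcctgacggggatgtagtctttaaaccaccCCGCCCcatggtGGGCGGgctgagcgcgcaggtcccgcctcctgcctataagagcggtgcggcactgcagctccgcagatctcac
Tuba1c: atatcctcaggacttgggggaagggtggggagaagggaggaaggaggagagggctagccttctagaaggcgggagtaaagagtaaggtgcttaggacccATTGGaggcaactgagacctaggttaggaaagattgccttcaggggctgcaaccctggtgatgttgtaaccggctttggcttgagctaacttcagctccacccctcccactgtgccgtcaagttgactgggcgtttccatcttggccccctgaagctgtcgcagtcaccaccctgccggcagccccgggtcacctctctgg
Of the 10 genes, 8 were in that table, all but Tubb2b and Tubb6. The Sp1 box was in the promoters of Tuba4a, Tubb4b, Tubb2a, Tuba1b, Tuba1a and Tubb5, and in 35.7% of all 32851 promoters. The CCAAT box was in those of Tubb4b (5 copies), Tubb5 (2), Tuba1a and Tuba1c, and in 37.4% of all. The TATA box was found in Tubb4b and Tubb2a (13.6% of all), the M-CAT element in Tubb5 (14.7%), the E-box in Tuba8 and Tubb5 (7.15%), and neither the AP-1 site (7.81%) nor the CArG box (1.63%) in any of the 8. A match describes the letters only.

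By fold change, TAC lowered Tuba4a in WT ventricles and raised Tuba1c, Tubb2a and Tubb2b most, with smaller fold changes of Tuba1a and Tubb5. The order in CPM differed. Tuba1a averaged 103 CPM in WT TAC and 76.9 CPM in WT sham libraries, and Tubb5 126 and 101 CPM. Tuba1c averaged 34.9 and 17.5 CPM, Tubb2a 56.2 and 31.4 CPM, and Tubb2b 6.39 and 2.96 CPM. Among the 10, the test put 5 higher (Tuba1a, Tuba1c, Tubb2a, Tubb2b and Tubb5) and 1 lower (Tuba4a) in WT TAC over WT sham at an adjusted p under 0.05 by edgeR's quasi-likelihood test, and 4 were not called. Over all genes tested, 21.1% were called higher and 20.8% lower in this comparison. The median log2 fold change was 0.30 over the 10 genes and -0.00 over all genes tested. JP2CR TAC over JP2CR sham gave 4 called higher (Tuba1a, Tuba1c, Tubb2a and Tubb2b), 2 lower (Tuba4a and Tuba8) and 4 not called, where 20.7% of all genes passed as higher and 20.7% as lower. Here the median was 0.12 over the 10 genes and -0.00 over all.

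**Figure D1:**
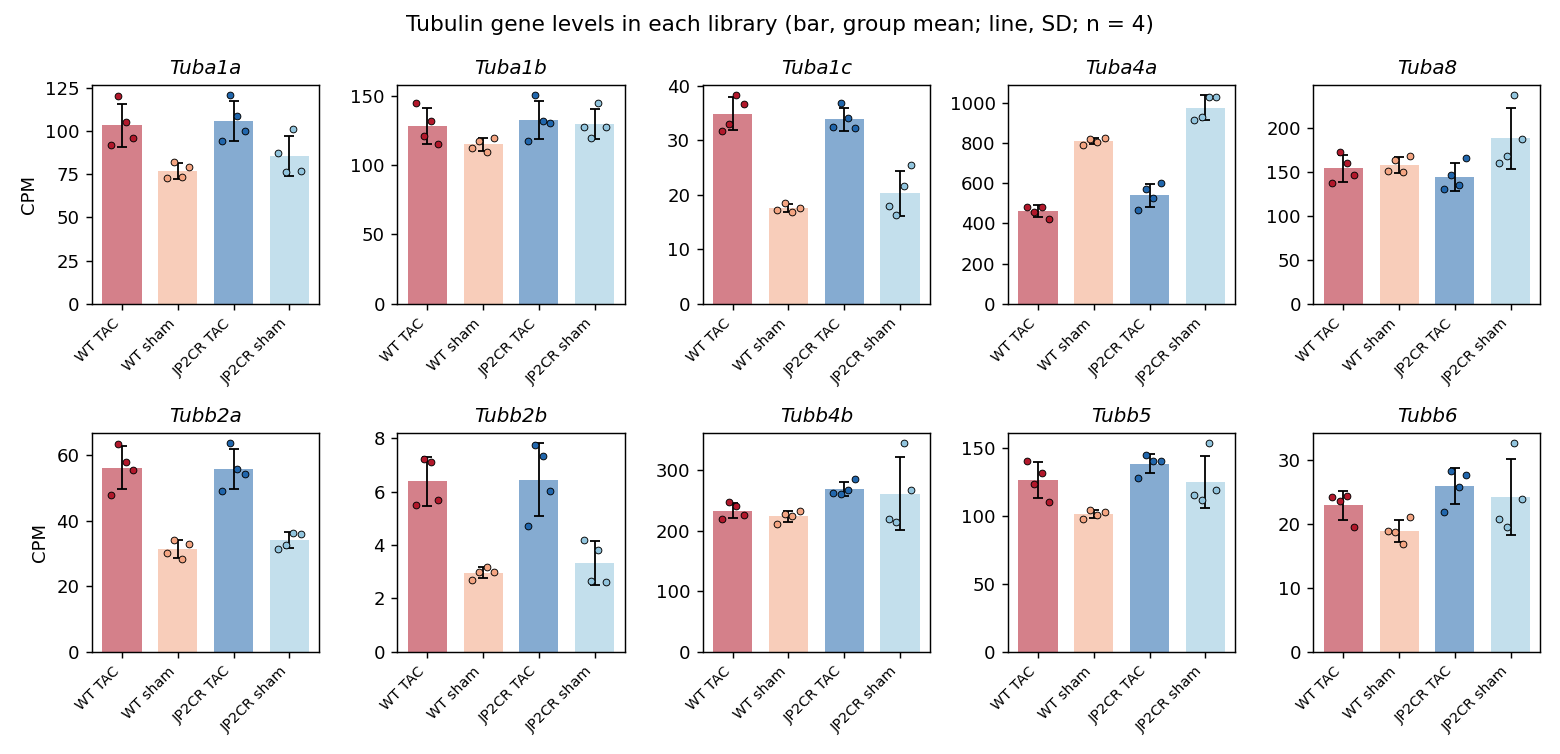
Level in CPM (y axis, from 0) of each tubulin gene in each of the 16 libraries (points) by group (x axis), with the group mean (bar) and SD (line), n = 4. Tuba4a is lower and Tuba1c, Tubb2a and Tubb2b are higher in every TAC library than in every sham library of the same genotype, and JP2CR sham 3 is the high point of Tubb4b (344 CPM) and Tubb5 (154 CPM).

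Tuba4a had the highest counted level of the alpha-tubulin genes in every group and was the 1 member called lower in both genotypes. Its rank above Tuba1a and Tuba1b depends on how reads that match several genes were counted, which is not known here. Tuba4a levels were 482, 459, 484 and 424 CPM in the 4 WT TAC libraries, against 791, 822, 805 and 824 CPM in the WT sham libraries. The groups did not overlap, and Tuba4a fell by 43.0% (log2 fold change -0.81 ± 0.07 SE, adjusted p = 8.59e-08, edgeR). In JP2CR TAC libraries it stood at 465, 570, 525 and 600.1 CPM, against 915, 929, 1030 and 1029 CPM in JP2CR sham libraries. Every JP2CR TAC library was again below every sham library, and the level fell by 44.6% (-0.85 ± 0.07, adjusted p = 9.43e-08, edgeR). Across 29 other settings the estimate stayed between -0.83 and -0.77 in WT and between -0.91 and -0.79 in JP2CR, with the call made in 29 of 29 in each.

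Tuba1c, a widely expressed alpha-tubulin gene, rose 1.98-fold in WT. It had 31.7, 33.0, 38.2 and 36.5 CPM in WT TAC libraries and 17.2, 18.5, 16.9 and 17.6 CPM in WT sham libraries, which left a clear gap between the groups (log2 fold change 0.99 ± 0.10 SE, adjusted p = 9.80e-07, edgeR). JP2CR TAC libraries had 32.4, 36.8, 34.0 and 32.2 CPM, against 17.97, 16.2, 21.5 and 25.5 CPM in JP2CR sham libraries. These groups did not overlap either (0.74 ± 0.10, adjusted p = 2.71e-05), and the 2 highest sham values were those of the libraries with Xist counts.

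Tuba1a, the alpha-tubulin gene of growing neurons, and Tuba1b, a widely expressed one, changed less. For Tuba1a, WT TAC libraries had 91.9, 120.1, 105 and 96.1 CPM, against 72.8, 82.2, 73.3 and 79.1 CPM in WT sham libraries, so every TAC library was above every sham library (log2 fold change 0.43 ± 0.10 SE, adjusted p = 0.0021, edgeR). In JP2CR the groups overlapped, with 94.0, 121, 109 and 100.2 CPM in TAC libraries and 87.3, 76.6, 101 and 77.0 CPM in sham libraries (0.30 ± 0.10, adjusted p = 0.02), and this call was not made without JP2CR sham 2 (adjusted p = 0.0632), JP2CR sham 4 (0.057) or JP2CR TAC 2 (0.0784). Tuba1b was not called in either genotype. It averaged 128 ± 13.2 CPM in WT TAC and 115 ± 4.62 CPM in WT sham libraries (0.16 ± 0.08, adjusted p = 0.126), and 133 ± 13.6 CPM in JP2CR TAC and 130 ± 10.8 CPM in JP2CR sham libraries (0.03 ± 0.08, adjusted p = 0.817; SD, n = 4 each).

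The sum of Tuba1a, Tuba1b and Tuba1c does not depend on how reads were split among the 3 copies, though reads dropped for matching several of them would be missing from it. It averaged 266 ± 12.9 CPM in WT TAC and 209 ± 9.47 CPM in WT sham libraries (SD, n = 4 each), a ratio of 1.27, and its lowest TAC value (248 CPM) was above its highest sham value (218 CPM). In JP2CR it averaged 272 ± 27.0 CPM in TAC and 236 ± 23.2 CPM in sham libraries, a ratio of 1.15, with ranges that overlapped (244 to 308 CPM in TAC and 213 to 268 CPM in sham libraries).

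Tuba8, an alpha-tubulin gene known from heart, skeletal muscle and testis, gave different calls in the 2 genotypes. Its levels in WT TAC libraries were 138, 172, 160.1 and 147 CPM, against 151, 164, 150.4 and 169 CPM in WT sham libraries, which overlapped fully (log2 fold change -0.04 ± 0.11 SE, adjusted p = 0.808, edgeR). JP2CR TAC libraries had 131, 147, 135 and 166 CPM, against 160.1, 169, 237 and 188 CPM in JP2CR sham libraries. It fell by 23.4% there (-0.38 ± 0.11, adjusted p = 0.00787), although the highest TAC library lay above the lowest sham library and the 2 highest sham values were those of the libraries with Xist counts. Without the 3 libraries with Xist counts and the 2 intermediate TAC libraries the change was -0.25 with an adjusted p of 0.0874 (edgeR). The difference between the genotypes in this effect was -0.35 ± 0.15 and did not pass the test (adjusted p = 0.419).

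Among the beta-tubulin genes, the closely related Tubb2a and Tubb2b, both enriched in neurons, rose in both genotypes. Tubb2a had 47.7, 63.6, 57.8 and 55.6 CPM in WT TAC libraries and 30.1, 34.1, 28.3 and 32.9 CPM in WT sham libraries, a rise of 1.79-fold with no overlap (log2 fold change 0.84 ± 0.09 SE, adjusted p = 1.50e-06, edgeR). In JP2CR TAC libraries it had 49.2, 63.7, 55.9 and 54.4 CPM, against 31.4, 32.6, 36.4 and 36.1 CPM in JP2CR sham libraries (0.71 ± 0.09, adjusted p = 1.21e-05). Again no TAC library fell among the sham libraries.

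Tubb2b was the scarcest of the 10 genes and had the largest fold change among them in both TAC comparisons. WT TAC libraries held 5.50, 7.24, 7.12 and 5.70 CPM (71 to 109 counts), against 2.69, 2.98, 3.18 and 2.98 CPM in WT sham libraries (32 to 48 counts). It rose 2.16-fold (log2 fold change 1.11 ± 0.18 SE, adjusted p = 0.000102, edgeR). JP2CR TAC libraries held 4.71, 7.74, 7.34 and 6.02 CPM and JP2CR sham libraries 4.21, 2.65, 3.82 and 2.61 CPM. Neither pair of groups overlapped, though JP2CR TAC 1 and JP2CR sham 1 were close (0.92 ± 0.18, adjusted p = 0.000581). Summed over Tubb2a and Tubb2b, the level averaged 62.6 ± 7.37 CPM in WT TAC and 34.3 ± 2.60 CPM in WT sham libraries, a ratio of 1.82, and 62.3 ± 7.29 CPM in JP2CR TAC and 37.4 ± 2.42 CPM in JP2CR sham libraries, a ratio of 1.66 (SD, n = 4 each).

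Tubb5, a beta-tubulin gene expressed in most cells, rose in WT. It stood at 141, 123, 132 and 110.1 CPM in WT TAC libraries and at 97.8, 104, 101 and 103 CPM in WT sham libraries, which did not overlap (log2 fold change 0.32 ± 0.09 SE, adjusted p = 0.0077, edgeR). In JP2CR TAC libraries it had 128, 145, 140.5 and 140.4 CPM, against 116, 112, 154 and 119 CPM in JP2CR sham libraries. The high sham value was that of JP2CR sham 3, and Tubb5 was not called (0.15 ± 0.09, adjusted p = 0.196). The difference between the genotypes in its TAC effect was -0.17 ± 0.12 (adjusted p = 0.69).

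Tubb4b, the most abundant beta-tubulin transcript, was not called in either genotype. WT TAC libraries had 219, 247, 240.4 and 226 CPM, against 211, 226, 224 and 232 CPM in WT sham libraries (log2 fold change 0.06 ± 0.11 SE, adjusted p = 0.68, edgeR). JP2CR TAC libraries had 263, 260.5, 267 and 285 CPM, against 219, 214, 344 and 267 CPM in JP2CR sham libraries (0.04 ± 0.11, adjusted p = 0.791). The WT groups overlapped over most of their range, and the JP2CR sham libraries were spread widely, with the 2 that held Xist counts above the other 2.

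Tubb6, known for its raised level in regenerating and dystrophic skeletal muscle of mice, lies on chromosome 18 (67390717 to 67402749, plus strand, GRCm38). WT TAC libraries had 24.2, 23.6, 24.4 and 19.6 CPM, against 19.0, 18.8, 16.9 and 21.1 CPM in WT sham libraries. Library WT TAC 4 fell among the sham libraries, and the gene was not called (log2 fold change 0.27 ± 0.14 SE, adjusted p = 0.119, edgeR), whereas the authors' deposited table lists an adjusted p of 0.0263 for it. JP2CR TAC libraries had 21.9, 28.3, 25.9 and 27.7 CPM, against 20.7, 19.6, 32.7 and 23.8 CPM in JP2CR sham libraries, which overlapped (0.09 ± 0.13, adjusted p = 0.621). The authors' deposited table gave the other 9 genes the same calls as here in both genotypes.

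The JP2CR counts rest on which sham libraries are used. With JP2CR sham 3 left out, 7 of the 10 genes were called higher in JP2CR TAC over JP2CR sham, since Tubb4b (log2 fold change 0.21, adjusted p = 0.0223, edgeR), Tubb5 (0.27, adjusted p = 0.00486) and Tubb6 (0.29, adjusted p = 0.0371) joined the 4. The same 7 were called with all 3 libraries that held Xist counts left out, with Tubb4b at 0.28 (adjusted p = 0.00145), Tubb5 at 0.28 (0.0154) and Tubb6 at 0.33 (0.0436). Over all genes, 2808 of 13603 tested were called higher and 2636 lower in this comparison without JP2CR sham 3. Without the 3 libraries with Xist counts, 2539 of 13740 were called higher and 2397 lower. The WT count of tubulin genes called higher was 5 or 6 under every alternative run, Tubb6 being the one that joined.

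**Figure D2:**
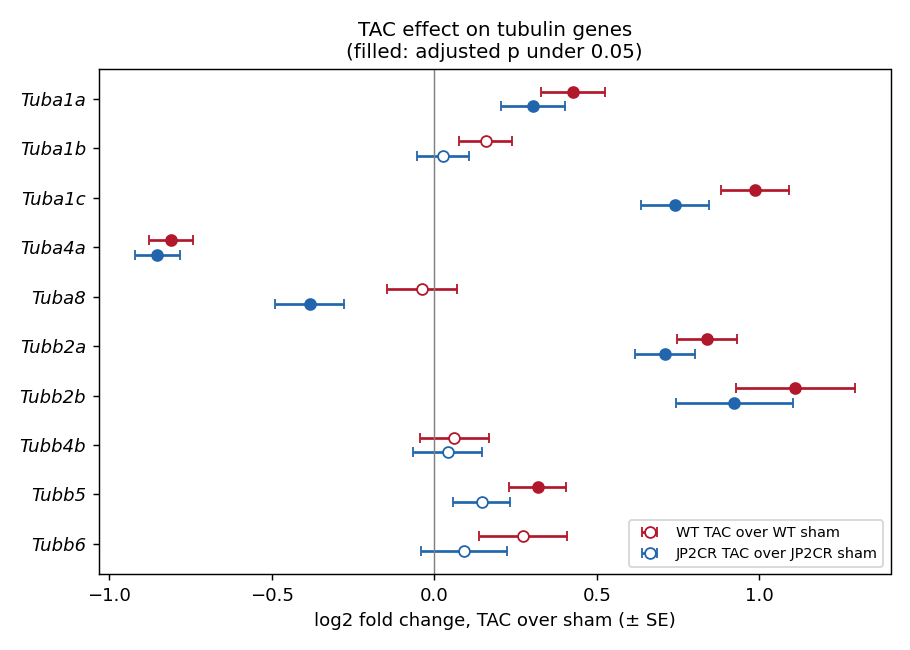
Log2 fold change with its SE (x axis) of each tubulin gene (y axis) for TAC over sham in WT and in JP2CR, with filled points where the adjusted p was under 0.05. Tubb2b has the largest rise (1.11 in WT and 0.92 in JP2CR) and Tuba4a the largest fall (-0.81 and -0.85).

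Whether the TAC effect itself differed between the genotypes was tested as an interaction. None of the 10 genes was called by edgeR's quasi-likelihood test, DESeq2 or limma voom, and 1 of them (Tuba8) had an unadjusted p under 0.05. Over all genes tested, 0.0887% were called higher and 0.0296% lower. The 10 estimates ran from -0.35 to -0.02. They share the JP2CR sham libraries, and without JP2CR sham 3 they ran from -0.21 to 0.15, with 2 above 0.

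JP2CR sham ventricles had 10 of 10 tubulin estimates above WT sham, between 0.12 and 0.36, but 0 genes were called by edgeR, DESeq2 or limma voom. An unadjusted p under 0.05 was found for 6 of them (Tuba1b, Tuba4a, Tuba8, Tubb4b, Tubb5 and Tubb6). Over all genes 0% were called higher and 0.0961% lower, with 1078 genes at an unadjusted p under 0.05. Tuba4a had the smallest p of the 10, with the levels given above not overlapping (log2 fold change 0.27 ± 0.07 SE, adjusted p = 0.208), and it was at 0.24 (adjusted p = 0.298) with JP2CR sham 3 left out and at 0.18 (adjusted p = 0.327) with all 3 Xist-bearing libraries left out. There, 8 of the 10 estimates were above 0. Tubb5 also did not overlap between these groups and was not called (0.30 ± 0.09, adjusted p = 0.317).

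JP2CR TAC over WT TAC likewise gave 0 called tubulin genes by edgeR, DESeq2 and limma voom, where 0.362% of all genes were called higher and 0.288% lower. Tuba4a, at a mean of 540.1 ± 58.5 CPM in JP2CR TAC and 462 ± 28.0 CPM in WT TAC libraries (SD, n = 4 each), was the 1 member with an unadjusted p under 0.05 (log2 fold change 0.23 ± 0.07 SE, adjusted p = 0.142, edgeR). Without JP2CR TAC 1, its lowest library, it was called (0.29, adjusted p = 0.0386). Tubb4b also did not overlap between the groups, at 269 ± 11.1 CPM in JP2CR TAC and 233 ± 12.9 CPM in WT TAC libraries, and was not called (0.21 ± 0.11, adjusted p = 0.44).

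To compare the genes with each other, CPM were divided by the length of each gene's exons in kilobases. On this scale Tuba4a led the alpha-tubulins, with 125 ± 7.56 CPM per kb in WT TAC and 219 ± 4.21 CPM per kb in WT sham libraries. It was followed in WT TAC by Tuba1b (68.4 ± 7.03), Tuba8 (68.2 ± 6.68) and Tuba1a (57.3 ± 6.92), and then by Tuba1c (15.2 ± 1.32). Tuba1b and Tuba8 did not differ beyond their spread there, and Tuba1a lay below them by more than 1 SD. In WT sham the order was Tuba8 (70.0 ± 4.03), Tuba1b (61.3 ± 2.46), Tuba1a (42.6 ± 2.54) and Tuba1c (7.67 ± 0.311) after Tuba4a (SD, n = 4 each). Tuba4a also led in JP2CR, with 146 ± 15.8 CPM per kb in TAC and 264 ± 16.8 CPM per kb in sham libraries. Tuba1c was again last, with 14.8 ± 0.931 CPM per kb in TAC and 8.88 ± 1.80 CPM per kb in sham libraries. The rank of Tuba4a above Tuba1a and Tuba1b depends on how reads that match several genes were counted, which is not known here.

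The beta-tubulin level per length was led by Tubb4b, at 112 ± 6.19 CPM per kb in WT TAC and 107 ± 4.30 CPM per kb in WT sham libraries. Tubb5 (38.0 ± 3.90) and Tubb2a (34.9 ± 4.08) came next in WT TAC and did not differ beyond their spread, whereas in WT sham Tubb5 (30.5 ± 0.839) stood above Tubb2a (19.5 ± 1.62). Tubb6 (9.41 ± 0.924 in WT TAC and 7.78 ± 0.704 in WT sham) and Tubb2b (2.79 ± 0.399 in WT TAC and 1.29 ± 0.0882 in WT sham) came last. Tubb4b, Tubb5, Tubb2a, Tubb6 and Tubb2b kept this order in the group means of JP2CR TAC and JP2CR sham.

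Set within the alpha-tubulin total per length, Tuba4a gave 37.4 ± 1.36% in WT TAC and 54.7 ± 0.825% in WT sham libraries, and 41.2 ± 1.41% in JP2CR TAC and 55.9 ± 2.12% in JP2CR sham libraries (SD, n = 4 each). The 3 genes that encode a final tyrosine (Tuba1a, Tuba1b and Tuba1c) together gave 42.2 ± 0.321% in WT TAC and 27.9 ± 0.436% in WT sham libraries, and 40.8 ± 2.49% in JP2CR TAC and 26.6 ± 1.30% in JP2CR sham libraries. The lowest TAC share of these 3 genes (41.9% in WT, 37.1% in JP2CR) was above the highest sham share (28.3% in WT, 28.1% in JP2CR). Tuba8 gave 20.4 ± 1.59% in WT TAC and 17.5 ± 0.464% in WT sham libraries, while its level was 68.2 ± 6.68 and 70.0 ± 4.03 CPM per kb. A fall of Tuba4a by itself raises the shares of the other genes, so a higher share need not be a higher level. The summed CPM of Tuba1a, Tuba1b and Tuba1c overlapped between TAC and sham in JP2CR, as given above. All values here are of mRNA, and no protein or modified tubulin was measured.

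**Figure D3:**
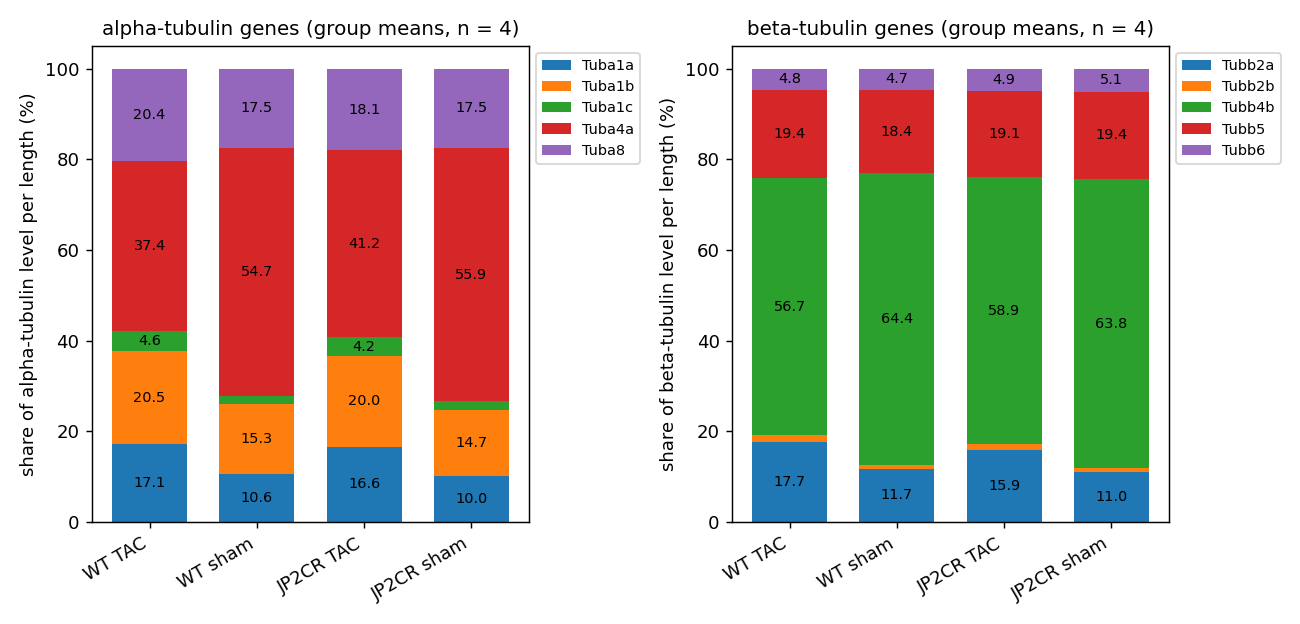
Mean share (%) of each gene in the alpha-tubulin (left) and beta-tubulin (right) level per exon length in the 4 groups (x axis), n = 4 libraries each. The Tuba4a segment is 37.4% in WT TAC and 54.7% in WT sham, and the Tubb2a segment is 17.7% in WT TAC and 11.7% in WT sham.

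The beta-tubulin shares moved less. Tubb4b gave 56.7 ± 1.08% in WT TAC and 64.4 ± 0.846% in WT sham libraries, and 58.9 ± 2.26% in JP2CR TAC and 63.8 ± 2.21% in JP2CR sham libraries. Tubb2a gave 17.7 ± 1.48% in WT TAC and 11.7 ± 0.705% in WT sham libraries, and 15.9 ± 1.36% in JP2CR TAC and 11.05 ± 1.36% in JP2CR sham libraries (SD, n = 4 each). Tubb5 (19.4% in WT TAC and 18.4% in WT sham) and Tubb6 (4.78% in WT TAC and 4.69% in WT sham) kept nearly the same share.

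The alpha-tubulin total was 334 ± 17.1 CPM per kb in WT TAC and 401 ± 12.9 CPM per kb in WT sham libraries, and the beta-tubulin total was 197 ± 10.6 CPM per kb in WT TAC and 166 ± 6.51 CPM per kb in WT sham libraries. In JP2CR the alpha-tubulin total was 354 ± 31.7 CPM per kb in TAC and 473 ± 40.9 CPM per kb in sham libraries, and the beta-tubulin total was 218 ± 8.96 CPM per kb in TAC and 195 ± 38.4 CPM per kb in sham libraries. With the longest RefSeq transcript as the length, the WT alpha-tubulin total was 379 ± 19.2 CPM per kb in TAC and 473 ± 14.4 CPM per kb in sham libraries. The beta-tubulin totals of JP2CR overlapped (205.9 to 226.5 CPM per kb in TAC and 165 to 249 CPM per kb in sham libraries). Reads dropped for matching several genes would lower Tuba1a, Tuba1b and Tuba1c more than Tuba4a and Tuba8, so the alpha-tubulin totals and shares, and the direction of the total, depend on a counting step that is not known here. No test was made of these totals and shares.

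Other tubulin genes were also followed, and after them lists of other genes of the microtubule system. The count called in each list stands beside the share over all genes tested. That share was 21.1% higher and 20.8% lower in WT, and 20.7% each way in JP2CR. It moved under the alternatives. With atrial and adipocyte markers as covariates 1313 genes were called higher and 1348 lower of 13522 in WT. In JP2CR 2539 and 2397 of 13740 were called without the 3 libraries with Xist counts. With the 2 intermediate TAC libraries left out as well, 2028 and 1904 of 13706 were. Without each library in turn, 2502 to 2972 genes were called higher in WT and 2434 to 2825 in JP2CR. Of 10 other tubulin genes listed, 6 were tested, with 1 called higher and 2 lower in WT and 1 higher and 1 lower in JP2CR (median log2 fold change -0.21 and -0.30). Tubb3, the beta-tubulin of neurons, rose 3.05-fold in WT, with 8.45, 4.85, 6.95 and 5.94 CPM in WT TAC and 1.34, 2.61, 2.199 and 2.29 CPM in WT sham libraries (log2 fold change 1.61 ± 0.22 SE, adjusted p = 1.61e-05, edgeR). In JP2CR it had 5.24, 4.84, 6.10 and 3.94 CPM in TAC and 1.57, 1.37, 1.42 and 0.732 CPM in sham libraries (1.93 ± 0.25, adjusted p = 9.40e-06). Neither pair of groups overlapped. The 4 tested markers of nerve and Schwann cells were called lower in WT and 3 of them in JP2CR. Over the alternatives the count called lower ran from 1 to 6 in WT and was 3 in JP2CR. All 8 listed markers summed to 7.46 to 10.4 CPM in WT TAC and 19.7 to 26.6 CPM in WT sham libraries. Which cells held the Tubb3 transcript was not tested.

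Tubb4a, a beta-tubulin of brain, fell in WT (log2 fold change -0.73 ± 0.21 SE, adjusted p = 0.00848, edgeR) and was at -0.42 ± 0.21 (adjusted p = 0.114) in JP2CR. Tubg1, the gamma-tubulin that seeds microtubules, fell in both genotypes (-0.25 ± 0.09, adjusted p = 0.0273 in WT, and -0.43 ± 0.09, adjusted p = 0.00079 in JP2CR). Tubg2 (0.21 and 0.02), Tubd1 (-0.17 and -0.18) and Tube1 (-0.68 and -0.74) were not called in WT or JP2CR. Tuba3a and Tubal3 had 0 counts in all 16 libraries, and Tuba3b and Tubb1 stayed at or under 0.465 and 1.05 CPM and were not tested. The WT count called lower was 1 without WT sham 2, WT sham 4, WT TAC 1, WT TAC 3 or the 2 intermediate TAC libraries and 0 with marker covariates, and the JP2CR count called lower was 2 without JP2CR sham 3.

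The enzymes that remove and restore the final tyrosine changed by less than Tuba4a did. Of 4 tested genes, 2 were called higher and 0 lower in WT, and 3 higher and 1 lower in JP2CR (median log2 fold change 0.17 and 0.26). Ttl, the ligase, rose in WT, with 61.9, 53.5, 55.9 and 53.4 CPM in WT TAC and 44.98, 43.2, 46.4 and 44.6 CPM in WT sham libraries that did not overlap (0.33 ± 0.07 SE, adjusted p = 0.000837, edgeR), and in JP2CR (0.22 ± 0.07, adjusted p = 0.0141). Vash1, a vasohibin that removes the tyrosine, rose in WT, with 67.3, 75.1, 72.7 and 67.0 CPM in WT TAC and 54.8, 54.8, 50.5 and 54.0 CPM in WT sham libraries (0.40 ± 0.11, adjusted p = 0.00606), and in JP2CR (0.30 ± 0.11, adjusted p = 0.0347), where the groups overlapped. Every WT TAC library was above every WT sham library for both genes.

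Svbp, listed as Ccdc23, was at 0.02 ± 0.12 (adjusted p = 0.919) in WT and rose in JP2CR (log2 fold change 0.36 ± 0.12 SE, adjusted p = 0.0241, edgeR), and Matcap1, listed as 4931428F04Rik, was at -0.04 ± 0.18 (adjusted p = 0.889) in WT and fell in JP2CR (-0.59 ± 0.19, adjusted p = 0.0192). Vash2 was present at no more than 0.977 CPM and was not tested. The JP2CR calls of the tyrosination cycle were unstable, with 0 genes called higher without the 3 libraries that held Xist counts and 1 without JP2CR sham 4 or without JP2CR TAC 2. No gene was called lower without JP2CR sham 1, JP2CR sham 2, JP2CR TAC 4 or the 2 intermediate TAC libraries. In WT 2 genes were called higher without each library in turn, and 1 with atrial and adipocyte markers as covariates.

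Among enzymes of other tubulin modifications, Ttll7 and Ttll1 changed most in opposite directions. Of 14 tested, 4 were called higher and 3 lower in WT and 4 higher and 2 lower in JP2CR (median log2 fold change 0.12 and 0.06). The shares over all genes were 21.1% higher and 20.8% lower in WT and 20.7% each way in JP2CR. Ttll7, a polyglutamylase of beta-tubulin, rose 3.07-fold in WT, at 24.0, 23.0, 23.5 and 29.5 CPM in WT TAC and 9.31, 8.69, 7.41 and 7.14 CPM in WT sham libraries (1.62 ± 0.12 SE, adjusted p = 1.25e-08, edgeR), and 3.10-fold in JP2CR (1.63 ± 0.12, adjusted p = 3.13e-08). Ttll1, the catalytic part of a polyglutamylase complex, fell in WT, at 18.6, 22.5, 24.6 and 27.7 CPM in WT TAC and 53.9, 54.3, 48.4 and 58.1 CPM in WT sham libraries (-1.20 ± 0.14, adjusted p = 2.45e-06), and in JP2CR (-1.21 ± 0.14, adjusted p = 3.14e-06). The TAC and sham values of both genes stood far apart.

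Agtpbp1, a carboxypeptidase that shortens the glutamate side chains of tubulin, fell in WT (log2 fold change -0.49 ± 0.07 SE, adjusted p = 3.03e-05, edgeR) and JP2CR (-0.42 ± 0.07, adjusted p = 0.000178). Ttll12, of the tubulin tyrosine ligase-like family, rose in WT (0.42 ± 0.08, adjusted p = 0.000503) and JP2CR (0.31 ± 0.08, adjusted p = 0.00634). With the 3 Xist-bearing libraries left out, 2 genes of the list were called higher in JP2CR. With the 2 intermediate TAC libraries left out as well, 1 was called higher. In WT the list gave 1 called higher and 2 lower with marker covariates.

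Chaperones that fold tubulin were mixed. Of 22 tested, 3 were called higher and 3 lower in WT and 3 higher and 5 lower in JP2CR (median log2 fold change -0.02 and -0.05). For all genes these shares were 21.1% and 20.8% in WT and 20.7% each way in JP2CR. Of the prefoldin subunits, Pfdn1 rose (0.36 ± 0.06 SE, adjusted p = 0.000106, edgeR, in WT, and 0.25 ± 0.06, adjusted p = 0.00289, in JP2CR) and Pfdn6 fell (-0.38 ± 0.09, adjusted p = 0.0027, in WT, and -0.47 ± 0.09, adjusted p = 0.000481, in JP2CR). Cct8, a subunit of the chaperonin, and Tbcc, a tubulin cofactor, rose in WT (0.19 ± 0.05, adjusted p = 0.00439, and 0.46 ± 0.12, adjusted p = 0.0055) and were at 0.12 and 0.12 in JP2CR, not called. Ttc5, the reader of nascent tubulin, was at 0.03 ± 0.07 (adjusted p = 0.795) in WT and at -0.04 ± 0.07 (adjusted p = 0.712) in JP2CR, with mean levels between 19.0 and 19.5 CPM in the 4 groups. The JP2CR count called higher was 1 without JP2CR sham 2, JP2CR TAC 2, JP2CR TAC 3, the 2 intermediate TAC libraries or the 3 libraries with Xist counts. The JP2CR count called lower was 3 in that last setting, and 2 when the 2 intermediate TAC libraries were left out as well. In WT the list gave 1 called higher and 1 lower with marker covariates.

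Of the proteins that bind, track or cut microtubules, 10 of 27 tested were called higher and 5 lower in WT and 9 higher and 4 lower in JP2CR (median log2 fold change 0.23 and 0.05). Clip1, a tracker of growing ends that prefers tyrosinated tubulin, averaged 558 ± 30.02 CPM in WT TAC and 314 ± 7.51 CPM in WT sham libraries (0.83 ± 0.06 SE, adjusted p = 3.59e-08, edgeR) and rose in JP2CR too (0.73 ± 0.06, adjusted p = 2.42e-07). Map4, the main microtubule-associated protein outside neurons, rose in WT (0.46 ± 0.04, adjusted p = 8.26e-08) and JP2CR (0.36 ± 0.04, adjusted p = 1.82e-06). Map7d1, of the family that recruits kinesin-1, and Tppp, which bundles microtubules, fell in WT (-0.45 ± 0.04, adjusted p = 5.30e-07, and -1.08 ± 0.11, adjusted p = 6.27e-07) and in JP2CR (-0.42 ± 0.04, adjusted p = 1.71e-06, and -0.77 ± 0.11, adjusted p = 2.69e-05).

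Motor genes were called in 1 direction, with 9 of 16 tested higher and 0 lower in WT and 8 higher and 0 lower in JP2CR (median log2 fold change 0.21 and 0.18). Among all genes, 21.1% were called higher and 20.8% lower in WT, and 20.7% each way in JP2CR. Kif5b, the kinesin-1 heavy chain, averaged 349 ± 24.7 CPM in WT TAC and 120.1 ± 6.39 CPM in WT sham libraries, a rise of 2.91-fold (1.54 ± 0.10 SE, adjusted p = 5.62e-09, edgeR), and rose 2.81-fold in JP2CR (1.49 ± 0.10, adjusted p = 1.74e-08). The dynein genes Dync1li1 (0.66 ± 0.06, adjusted p = 2.63e-07), Dync1h1 (0.44 ± 0.05, adjusted p = 4.09e-06) and Dynll1 (0.53 ± 0.11, adjusted p = 0.000942) rose in WT, and all 3 were called higher in JP2CR at 0.53, 0.33 and 0.52. Without the 3 libraries with Xist counts 4 motor genes were called higher in JP2CR, where 2539 of all 13740 genes were. The count called higher ran from 6 to 10 in WT over the alternatives, with 0 called lower.

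Genes of microtubule nucleation gave 1 higher and 4 lower of 11 tested in WT and 2 higher and 4 lower in JP2CR (median log2 fold change -0.10 and -0.09). All genes together gave 21.1% higher and 20.8% lower in WT and 20.7% each way in JP2CR. Pcnt, which encodes the scaffold pericentrin, fell (-0.63 ± 0.08 SE, adjusted p = 1.14e-05, edgeR, in WT, and -0.48 ± 0.08, adjusted p = 0.000191, in JP2CR), and Akap9, a scaffold of centrosome and Golgi, rose (0.44 ± 0.09, adjusted p = 0.000586, in WT, and 0.39 ± 0.09, adjusted p = 0.00172, in JP2CR). Mzt2 fell in WT (-0.27 ± 0.09, adjusted p = 0.0239) and Tubgcp6, a subunit of the gamma-tubulin ring complex, fell in both (-0.22 ± 0.08, adjusted p = 0.0303, in WT, and -0.29 ± 0.08, adjusted p = 0.00731, in JP2CR). The smaller calls here moved with single libraries, and the WT count called lower was 1 without WT TAC 2 or with marker covariates, and 2 without WT sham 3 or WT sham 4. The count called higher ran from 1 to 3 in WT and from 0 to 3 in JP2CR over the alternatives.

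**Figure D4:**
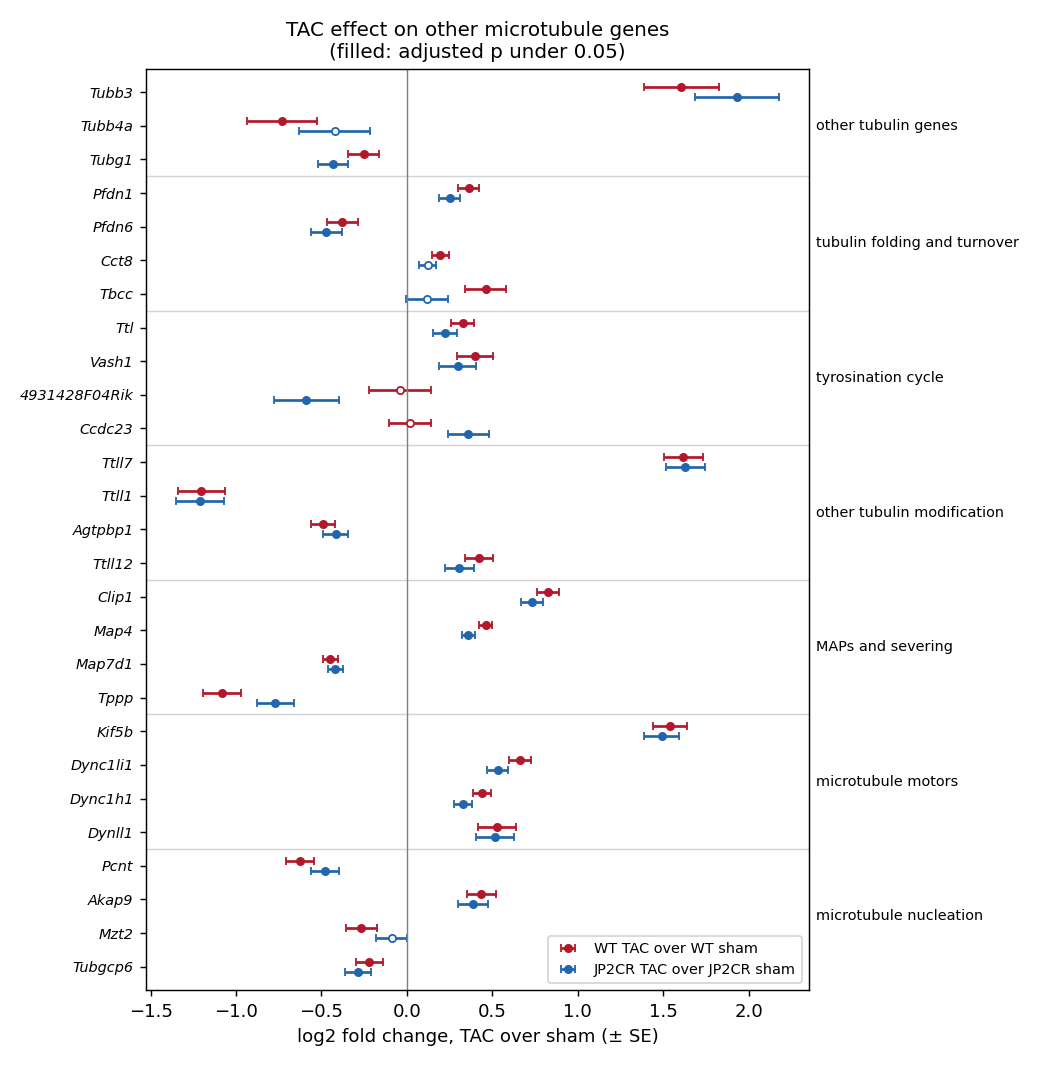
Log2 fold change with its SE (x axis) for TAC over sham in WT and in JP2CR of the genes named from 7 lists of the microtubule system (y axis, lists named on the right), with filled points where the adjusted p was under 0.05. Tubb3 (1.61 and 1.93), Ttll7 (1.62 and 1.63) and Kif5b (1.54 and 1.49) are the highest in WT and in JP2CR, and Ttll1 (-1.20 and -1.21) the lowest.

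Other tissue signals moved with the TAC groups, each given as the summed level of 8 markers. Their calls stand beside 21.1% of all genes called higher and 20.8% lower in WT, and 20.7% each way in JP2CR. Cardiomyocyte markers were called lower for 5 of 8 and higher for 1 in each genotype, at 63788 to 69329 CPM in WT TAC and 85104 to 89696 CPM in WT sham libraries, and at 65089 to 70242 CPM in JP2CR TAC and 80462 to 103311 CPM in JP2CR sham libraries. Proliferation markers were called higher for 8 of 8 in WT and 7 of 8 in JP2CR, at 28.6 to 51.3 CPM in WT TAC, 12.1 to 13.4 CPM in WT sham, 35.2 to 52.1 CPM in JP2CR TAC and 9.13 to 23.8 CPM in JP2CR sham libraries. Fibroblast markers were called higher for 4 of 8 in each genotype and lower for 0 in WT and 1 in JP2CR (Tcf21), at 2552 to 3765 CPM in WT TAC, 1722 to 1757 CPM in WT sham, 2601 to 3284 CPM in JP2CR TAC and 1412 to 1878 CPM in JP2CR sham libraries. Macrophage markers were called higher for 7 of 8 in each, at 433 to 475 CPM in WT TAC, 319 to 355 CPM in WT sham, 475 to 561 CPM in JP2CR TAC and 329 to 402 CPM in JP2CR sham libraries.

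Smooth muscle and pericyte markers were called lower for 6 of 8 in WT and 4 of 8 in JP2CR and higher for 1 in each (Cspg4). Endothelial markers were called lower for 0 of 8 in WT and 2 of 8 in JP2CR, and higher for 0 in WT and 1 in JP2CR (Robo4). Atrial markers were called lower for 8 of 8 in WT and 5 of 8 in JP2CR, at 91.5 to 299 CPM in WT TAC, 1434 to 2322 CPM in WT sham, 381 to 649 CPM in JP2CR TAC and 199 to 2225 CPM in JP2CR sham libraries. Adipocyte markers were called lower for 8 of 8 in WT and 0 of 8 in JP2CR, at 0.232 to 5.70 CPM in WT TAC (with Ucp1 and Retn at 0), 20.3 to 221 CPM in WT sham, 2.10 to 92.2 CPM in JP2CR TAC and 4.76 to 239.6 CPM in JP2CR sham libraries. With atrial and adipocyte marker levels as covariates, 5 tubulin genes were called higher and 1 lower in WT, and 4 higher and 2 lower in JP2CR. In that fit 1313 of all 13522 genes tested were called higher and 1348 lower in WT, and 2974 higher and 2883 lower in JP2CR. The marker calls moved over the alternatives. The proliferation count called higher ran from 3 to 8 in WT and from 1 to 8 in JP2CR. The macrophage count called higher ran from 3 to 7 in WT and from 5 to 8 in JP2CR. The atrial count called lower ran from 3 to 8 in each genotype, and the adipocyte count called lower from 0 to 8 in WT. The part of the other cell types in the tubulin results was not tested.

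The members did not follow 1 profile. Each gene was scaled to mean 0 and SD 1 over the 16 libraries and the 10 were averaged, and Tubb6 (Pearson r = 0.96), Tubb5 (0.94) and Tuba1a (0.85) lay closest to this mean, with Tuba1b, Tubb4b, Tubb2a, Tubb2b and Tuba1c between 0.69 and 0.83. Tuba8 (0.29) and Tuba4a (-0.30) lay apart. Each member is itself part of the mean, which raises its coefficient, so these values cannot be set against those of other genes. The mean was highest in JP2CR sham 3 and JP2CR TAC 2 and lowest in WT sham 3 and WT sham 1. Among other genes, Actn4, a non-muscle alpha-actinin (r = 0.929), Dock6, an activator of small GTPases (0.921), Ndel1, a regulator of dynein (0.906), Plod3, a collagen-modifying enzyme (0.905), Acvrl1, a receptor of the TGF-beta family (0.896), and Pcolce2, a helper of collagen processing (0.895), were most like it over the 16 libraries. These coefficients describe libraries that share groups and depth. The 6 genes were picked by this likeness in the same libraries, so their TAC calls are no separate test. Of them, Actn4, Plod3 and Pcolce2 were called higher in WT TAC over WT sham by edgeR, where 21.1% of all genes were. Plod3 was called higher in JP2CR TAC over JP2CR sham, where 20.7% of all genes were.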

How the data were processed

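Stranded polyadenylated libraries of mouse ventricle, 4 per group, were made per the labels' protocols. No label links a library to an identified mouse, and p-values reflect only how far libraries of a group differ. Upstream tools, per the submitters' processing notes, included the aligner STAR (2.5.0b), the suites bedtools (2.17.0) and Picard (1.128), the packages Cufflinks (2.2.1) and DESeq2 (1.6.3), FastQC (1.0.0) and build mm10. Which program counted reads, with which strand setting and annotation, is not given in the sources used here. The authors deposited unnormalized counts, as whole numbers for 24421 symbols, and these were tested. The authors' log2 fold changes and adjusted p-values, deposited without a stated method, are quoted only by that name.

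Counts were tested with edgeR 4.0.16 (R 4.3.3): filterByExpr, TMM factors, a mean per group over all 16 libraries, the quasi-likelihood F test and Benjamini-Hochberg adjustment over 13522 genes, called at 0.05. The SE is the log2 fold change divided by the square root of F. This SE includes the spread between libraries, while the 3-count floor covers counting error only. Alternatives were DESeq2 1.42.0, voom (limma 3.58.1), other scalings, filters and thresholds, fits of only the groups compared, marker covariates, the replicate block, and fits without single libraries or those that stood apart. The fit was tested on simulated counts. Sequences and lengths came from GENCODE M21 and RefSeq; Svbp and Matcap1 were matched through synonyms. Some coding sequences are not reported here. All tubulin genes, all tested genes of the tyrosination cycle, up to 4 called genes of each other list by smallest p, and the 6 genes most like the mean profile are named. The family of genes, the lists, rules and alternatives were chosen with earlier results of these data known. Figures were drawn with matplotlib 3.10.9.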

Additional observations from a re-analysis of the deposited data

Results flagged for a closer look

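In 40 sets of 4 libraries (10 genes in 4 groups), 2 held a value far from the other 3, and about 1 in 20 such sets is set apart by chance. Tubb5 stood at 153.68 CPM in JP2CR sham 3, far above the 112 to 119 CPM of the other JP2CR sham libraries. JP2CR sham 3 also held 189 CPM of Xist and 0 CPM of Y-linked transcripts. Tubb6 stood at 19.5905 CPM in WT TAC 4, below the 23.6 to 24.4 CPM of the other WT TAC libraries and within the 16.9 to 21.1 CPM of the WT sham libraries. The part of these libraries in the results is given by the values without them, and no cause was tested.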

How the results depend on the processing

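Of 1440 results for single tubulin genes under the alternatives, 1423 kept their call or lack of one, 6 lost it, 11 gained it and 0 reversed, and 47 estimates changed sign while not called. The number of tubulin genes called higher in JP2CR TAC over JP2CR sham was 7 without the 3 libraries with Xist counts. It ran from 3 to 7 when each library was left out in turn, where the number over all genes ran from 2434 to 2825. The number called lower was 1 without the 3 Xist-bearing and the 2 intermediate TAC libraries. Tuba8 was not called there (adjusted p = 0.0874, edgeR), and 1904 of 13706 genes were called lower over all. For JP2CR TAC over WT TAC the number called higher ran from 0 to 1 on leaving out each library. The number over all genes ran from 5 to 136 there. The 1 (Tuba4a) was found without JP2CR TAC 1, where 62 of 13589 genes were called higher. Tuba1a in JP2CR lost its call without the 2 intermediate TAC libraries (adjusted p = 0.0588) and at an adjusted p under 0.01. Tubb6 in WT was called in a fit of only the groups compared (adjusted p = 0.0203), with the 3 Xist-bearing libraries left out (0.0272) and with JP2CR sham 3 left out (0.0327). The causes were not tested.

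With the replicate number as a block (replicate block) 5 tubulin genes were called higher and 1 lower in WT, and 4 and 2 in JP2CR. Over all 13522 genes, this fit called 2766 higher and 2751 lower in WT, and 2770 and 2720 in JP2CR. Libraries with the same number did not deviate together (correlations from -0.187 to 0.108, median -0.0118, with 1 of 24 pairs over 0.1), so the numbers were not taken as pairs. Shares per length depend on the length used, and Tuba4a gave 42.9% in WT TAC and 60.4% in WT sham libraries with the longest RefSeq transcript. Depth limits Tubb2b most, which had 25 counts in its lowest library.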
